A study of Mus musculus with 7 samples.

Results

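The genes of the eukaryotic translation initiation factors (eIF) were examined in secondary follicle-enclosed oocytes with and without Mfn1. Members were taken by name, as every gene symbol that begins with Eif and a digit from 1 to 6. The eIF2 kinases Eif2ak1 to Eif2ak4 and names that end in -ps, which are pseudogenes, were left out. This gave 50 members of the 22877 genes measured, and all 50 are protein-coding in GENCODE M21. Eif2s3y, the Y-linked copy of an eIF2 subunit gene, was not analysed here.

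RNA was sequenced from oocytes of 8-week-old female mice, labelled C57BL/6J in every sample, with 5 oocytes pooled in each library. The WT group had 4 libraries from littermates, and the Mfn1-/- group had 3 libraries from Mfn1 fl/fl mice carrying Zp3-Cre. In these mice Cre is driven by the Zp3 promoter, which is active in growing oocytes, so the deletion is limited to the oocyte and begins once a follicle has started to grow. The labels give 4 WT libraries whereas the design text gives 3 mice in each group, and how the pooled oocytes were drawn from mice is not given in the sources used here. The values are the authors' means of normalized counts, 1 for each genotype and gene. The spread between libraries and the depth are therefore unknown, no test was possible, and every difference below is a difference between 2 means with no error. The scale of the normalized counts is not stated, in particular whether they are per length, so each gene was compared only with itself across genotypes. How the counts were normalized is not given, and the means summed over all genes were 142576 in Mfn1-/- oocytes against 130160 in WT. Normalized counts give no number of transcripts per oocyte, so fewer transcripts of a gene and more RNA of other genes cannot be told apart. Where 2 means follow a gene name, the Mfn1-/- mean comes first.

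Mfn1 had a mean of 0.0577 in Mfn1-/- oocytes against 0.616 in WT, 10.7-fold lower, in the direction of the labels. All 12 oocyte markers had a value, 8 higher and 4 lower in Mfn1-/- oocytes, with summed means of 4063 against 3652 in WT. Ooep had 1310.0 and 1120.0, and Bmp15 had 158 and 181. Of the 14 granulosa cell markers 12 had a value, and 1 of them, Inha, reached a mean of 1. Of these 5 were higher and 7 lower, and their summed means were 2.37 and 1.71. Inha, with 1.87 and 0.954, set that order, since the other 11 summed to 0.501 and 0.757, a split made after the values were seen. Among them Fshr had 0.016 and 0.0171, Foxl2 had 0.0525 and 0.0183, and Cyp19a1 had 0.0846 and 0.193. Of 5 theca and stroma markers 2 had a value, with summed means of 0.0534 and 0.0446. The part of other cells in the results below was not tested.

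Translation initiation places the start codon of an mRNA in the decoding site of the ribosome. eIF2 carries the initiator tRNA to the small ribosomal subunit and is recharged with GTP by eIF2B, a step that stress kinases block by phosphorylating eIF2. eIF1, eIF1A and eIF3 ready the small subunit for scanning. The cap-binding protein eIF4E, the scaffold eIF4G and the helicase eIF4A bring the mRNA, and 4E-binding proteins hold eIF4E away from eIF4G. eIF5 and eIF5B act at start codon recognition and subunit joining. Growing oocytes make and store mRNA, much of which is held untranslated until meiotic maturation, and control of eIF4E is one known brake on such mRNA.

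Most of the initiation factor genes had nearly equal means in the 2 genotypes. Log2 fold changes (Mfn1-/- over WT) were computed after adding a pseudocount of 0.1 to both means, so that differences of low genes come out too small, and a gene was called when it differed by more than 2-fold. Of the 50 members, 2 were called higher, Eif4ebp1 and Eif2b5, and 0 were called lower. Among all 22877 genes, 4.87% were called higher and 2.75% lower, so the members' 4% and 0% lie near or below the background. These are 1114 and 628 genes, or 818 and 916 once the median of expressed genes (0.16) is subtracted. At a threshold of 1.5-fold, Eif3a and Eif1a joined them, 4 members in all, with 0 lower, against 12.4% and 6.88% of all genes. With the median of expressed genes subtracted, Eif3a (0.57) and Eif1a (0.53) fell under 1.5-fold, and Eif2b4 (-0.65) and Eif4e3 (-0.61) passed it as lower.

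Averaged over the 7 libraries, 42 members and 6226 genes of the series had 1 normalized count or more, and these are called expressed genes here. In these 6226 genes, 5.44% were more than 2-fold higher and 3.24% more than 2-fold lower, and 15.5% and 7.71% passed 1.5-fold. Among the 42 members, Eif4ebp1 alone was more than 2-fold higher, and 3 were more than 1.5-fold higher. Eif2b5 lies under this minimum, with a mean of 0.737.

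The expressed genes as a whole lay above 0, with a median log2 fold change of 0.16 over the 6226 genes, and 65.4% of them had the higher mean in Mfn1-/- oocytes. The median over the 50 members was 0.13, with 35 higher and 15 lower. Relative to the median of expressed genes, 22 members were higher and 28 lower. The middle 50% of expressed genes spanned log2 fold changes from -0.12 to 0.42, and 35 of the 50 members fell inside it, with 8 above and 7 below. The quartiles of the members were -0.03 and 0.36.

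**Figure D1:**
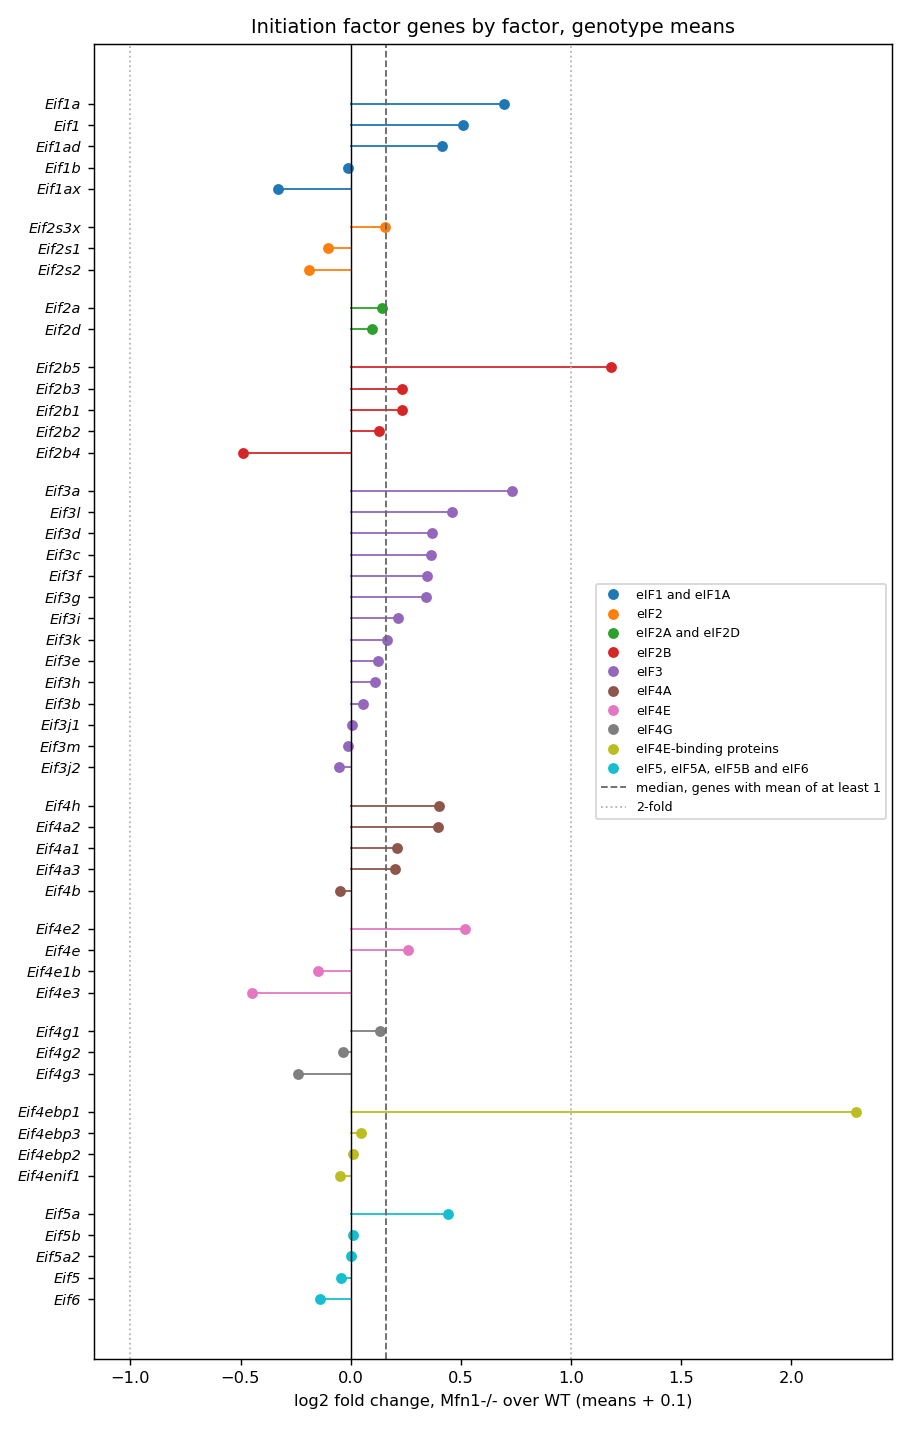
Log2 fold change (Mfn1-/- over WT, genotype means plus 0.1) of the 50 initiation factor genes, 1 point each, coloured by factor, with no error bars because only means were available. The dashed line marks the median of 0.16 of expressed genes and the dotted lines mark 2-fold. Eif4ebp1 (2.29) and Eif2b5 (1.18) pass 2-fold, and Eif2b4 (-0.49) and Eif4e3 (-0.45) are lowest.

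**Figure D2:**
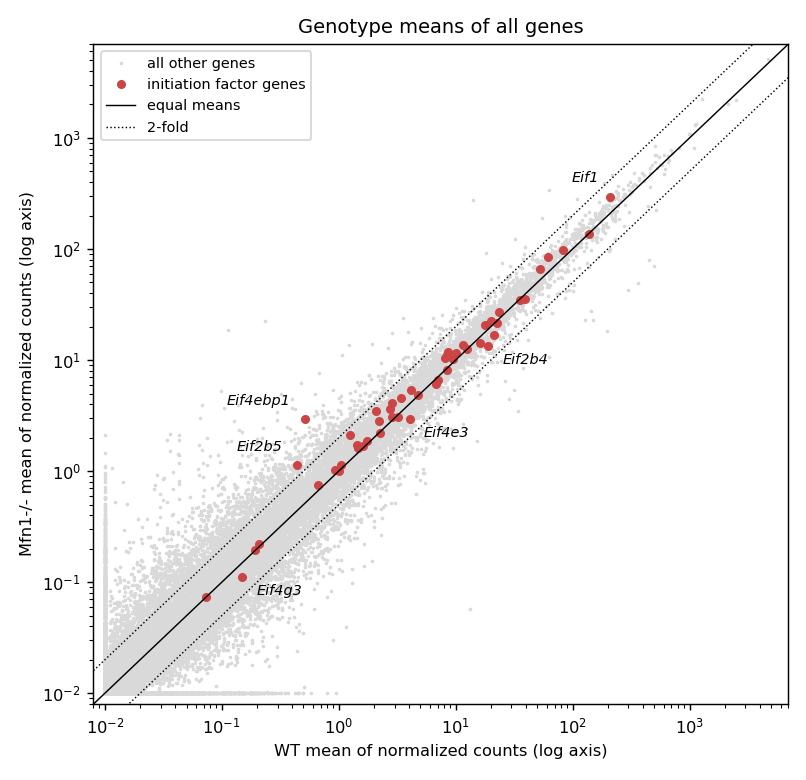
Mean of normalized counts in Mfn1-/- (vertical) against WT oocytes (horizontal), both on log axes, for all genes (grey) and the 50 initiation factor genes (red). The solid line marks equal means and the dotted lines 2-fold. The members run from 0.073 to 295 normalized counts, and Eif4ebp1 and Eif2b5 lie above the upper 2-fold line.

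**Figure D3:**
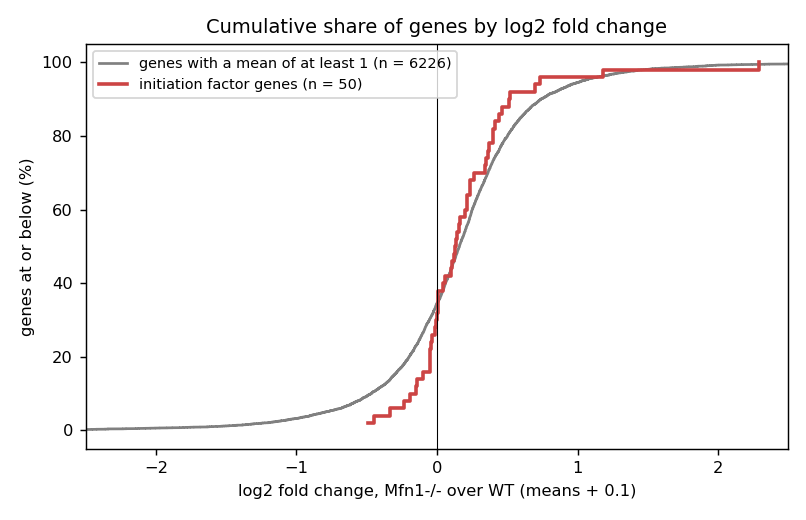
Cumulative share of genes (%) by log2 fold change for the 50 initiation factor genes (red) and the 6226 expressed genes (grey), without the extreme ends of the grey curve. The curves have medians of 0.13 and 0.16, and the red curve is steeper through the middle.

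The eIF4E-binding proteins held the largest difference. Eif4ebp1 encodes 4E-BP1, which binds eIF4E and keeps it from eIF4G until mTOR phosphorylates it. Its mean was 2.92 in Mfn1-/- oocytes against 0.516 in WT, 5.66-fold higher, a log2 fold change of 2.29. Among expressed genes, 99.5% had a lower log2 fold change. The value was 2.48 for a pseudocount of 0.01, 1.37 for one of 1 and 2.13 after the common shift was subtracted, and so passed 2-fold in each. Eif4ebp1 lies on chromosome 8 from 27260329 to 27276674 (GRCm38).

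The sister genes did not share this difference. Eif4ebp2 had means of 0.195 in Mfn1-/- oocytes against 0.193 in WT, and Eif4ebp3 had 0.22 and 0.21. Eif4enif1 encodes 4E-T, which carries eIF4E into the nucleus and holds it in repressed mRNPs, and its means were 3.1 and 3.21. The log2 fold changes of these 3 genes ran from -0.05 to 0.05, below the median of expressed genes. Eif4ebp3 lies over its whole length within the protein-coding gene AC115631.1 on the same strand, so its reads could have been divided between them. A caution applies to Eif4ebp1, because stretches of at least 75 bases, the read length, matched transcripts of 51 other genes at 95% identity or more. Of these, 26 were measured, and Eif4ebp1 had 0 measured pseudogene copies.

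Within the eIF4E family, the cap-binding proteins themselves differed in direction. Eif4e2 encodes 4EHP, a cap-binding protein that does not engage eIF4G and acts as a repressor, and its mean was 4.13 in Mfn1-/- oocytes against 2.85 in WT, 1.45-fold higher. Eif4e, the main cap-binding protein, had means of 13.8 and 11.5, 1.20-fold higher. Eif4e1b, a relative expressed chiefly in oocytes, had 6.11 and 6.79, 1.11-fold lower. Eif4e3, an atypical cap-binding protein, had 2.93 and 4.03, 1.38-fold lower. Relative to the median of expressed genes, Eif4e2 and Eif4e stayed above and Eif4e1b and Eif4e3 below. Before that median was subtracted all 4 genes lay within 1.5-fold, and after it Eif4e3, at -0.61, was more than 1.5-fold lower. Eif4e3 overlaps the annotated gene Gm20696 over its whole length on the same strand, so its reads could have been divided between them. The caution on matching stretches given for Eif4ebp1 also applies to Eif4e3, with 93 other genes (57 measured), and Eif4e2, with 30 (14 measured). Outside this family it applies to Eif6, with 19 (13 measured).

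The scaffold genes of eIF4G lay close to equality. Eif4g1 had means of 1.02 in Mfn1-/- oocytes against 0.922 in WT. Eif4g2, a relative that works without eIF4E, had 8.17 and 8.38. Eif4g3 had the largest difference of the group, 1.34-fold lower, at low means of 0.112 and 0.15. Its log2 fold change moved from -0.24 to -0.39 with a pseudocount of 0.01.

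Among the eIF4A helicases and their cofactors, 4 of 5 genes were higher in Mfn1-/- oocytes, and the same 4 stayed above the median of expressed genes. Eif4h, a cofactor that stimulates eIF4A, had means of 3.63 and 2.73, 1.33-fold higher. Eif4a2 had 11.1 and 8.4, 1.32-fold higher, while its paralog Eif4a1 had 20.5 and 17.7, 1.16-fold higher. Eif4a3, the helicase of the exon junction complex, had 27.1 and 23.6. The cofactor Eif4b had 2.19 and 2.27 and was the lowest of the group. None of the 5 genes passed 1.5-fold.

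The eIF2B subunits held both the second highest and the lowest log2 fold change among the 50 members. Eif2b5 encodes the epsilon subunit, which carries the exchange activity, and had means of 1.13 in Mfn1-/- oocytes against 0.443 in WT, 2.55-fold higher. Its log2 fold change of 1.18 became 1.02 after the common shift was subtracted. Pseudocounts of 0.01 and 1 gave 1.33 and 0.56, the last of which is under 2-fold. Eif2b4 encodes the delta subunit of the regulatory core and had means of 13.5 and 19, 1.41-fold lower, a log2 fold change of -0.49. The log2 fold changes of the 2 genes lay 1.67 apart.

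The other eIF2B genes lay between them. Eif2b3, which encodes the gamma subunit that pairs with epsilon, had means of 1.71 in Mfn1-/- oocytes against 1.44 in WT. Of the regulatory subunits, Eif2b1 (alpha) had 97.9 and 83.3 and Eif2b2 (beta) had 10.3 and 9.4. Eif2b1 and Eif2b3 had log2 fold changes of 0.23, just above the median of expressed genes, and Eif2b2 at 0.13 lay just below it. The eIF2B complex holds its protein subunits in equal numbers, but the values here are of RNA and give no protein amounts. The RNA ratios of the 5 genes to their WT means ran from 0.711 (Eif2b4) to 2.55 (Eif2b5, which lies under the minimum mean of 1). Transcripts of the 5 genes have 0 copies of the kind searched for, while Eif2b4 overlaps the protein-coding gene Snx17 on the opposite strand, and the strand setting of the counting is not given in the sources used here.

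**Figure D4:**
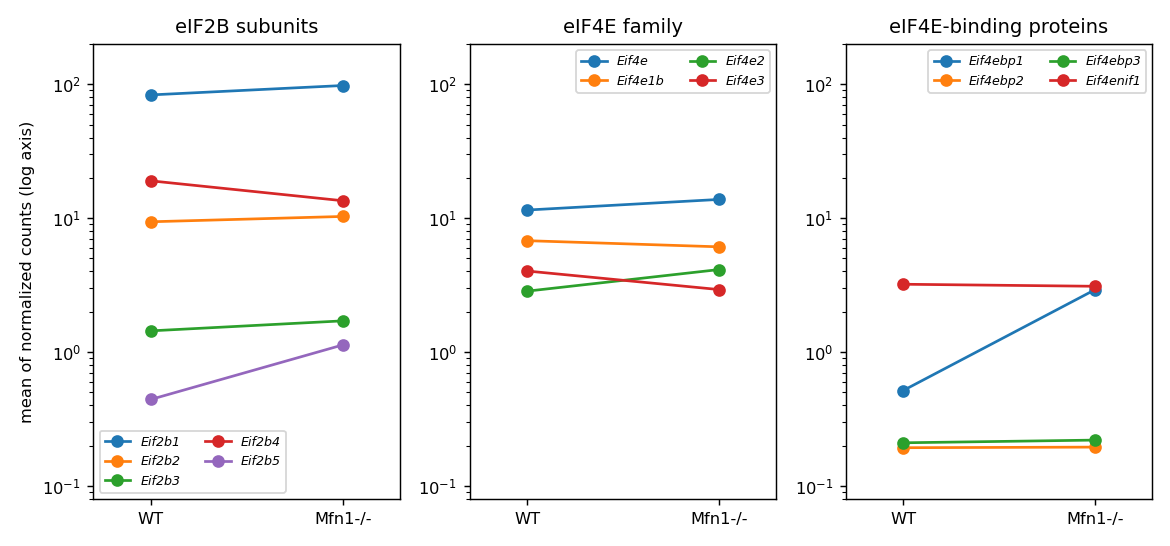
Mean of normalized counts (log axis) in WT and Mfn1-/- oocytes for the 5 eIF2B genes, the 4 genes of the eIF4E family and the 4 genes of eIF4E-binding proteins, each gene joined by a line. Slopes can be compared between genes, heights cannot, since the scale per length is not stated. Eif4ebp1 (0.516 to 2.92) and Eif2b5 (0.443 to 1.13) are the steepest lines.

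The promoters of Eif2b5 and Eif2b4 are shown because these genes stood at opposite ends of 1 complex. Each sequence holds the 250 bases before the RefSeq start and the first 20 bases after it (GRCm38.p6), 5′ to 3′ on the strand of the gene. Eif2b5 lies at chr16:20498567-20498836 on the plus strand and Eif2b4 at chr5:31193120-31193389 on the minus strand. Capitals mark CCGGAAGT or its reverse complement ACTTCCGG, the core letters bound by ETS-family transcription factors.
Eif2b5: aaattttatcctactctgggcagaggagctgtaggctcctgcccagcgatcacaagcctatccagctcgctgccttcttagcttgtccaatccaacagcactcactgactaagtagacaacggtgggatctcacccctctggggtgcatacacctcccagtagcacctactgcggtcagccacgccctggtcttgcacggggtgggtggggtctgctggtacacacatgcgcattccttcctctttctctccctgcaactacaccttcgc
Eif2b4: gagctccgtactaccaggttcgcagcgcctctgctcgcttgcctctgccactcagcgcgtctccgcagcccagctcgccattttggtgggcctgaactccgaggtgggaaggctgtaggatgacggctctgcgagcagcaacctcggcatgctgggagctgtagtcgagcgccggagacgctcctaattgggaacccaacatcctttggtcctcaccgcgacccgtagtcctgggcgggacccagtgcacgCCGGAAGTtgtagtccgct
Eif2b5 has 8 CG dinucleotides in this window and 0 matches to the motif, and Eif2b4 has 23 CG dinucleotides and 1 match, just inside the transcript. A match is a description of letters and was not tested for binding.

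RefSeq promoters of 300 bases (250 before the start and 50 after) were found for 38 of the 50 members, and Eif4ebp1 was not among them. The motif CCGGAAGT, on either strand, was in at least 1 promoter of 7 of the 38 genes, 18.4%. It was in 12.1% of the 3850 expressed genes with a promoter and in 4.31% of all 27025 genes with one. The median CG count of the member promoters was 25, against 21 in expressed genes and 8 in all genes, taking the highest count where a gene has several starts. The 7 windows below show the first match in each gene with the bases around it, the match in capitals, to show where these members hold the motif. They lie, on GRCm38.p6, at Eif2b2 at chr12:85219486-85219515 (plus strand), Eif2b4 at chr5:31193120-31193149 (minus strand), Eif3d at chr15:77970877-77970906 (minus strand), Eif3l at chr15:79075176-79075205 (plus strand), Eif4e2 at chr1:87213905-87213934 (plus strand), Eif5a at chr11:69920667-69920696 (minus strand) and Eif5a2 at chr3:28781102-28781131 (plus strand).
Eif2b2: cctctctcggcCCGGAAGTgaaacagtgct
Eif2b4: cccagtgcacgCCGGAAGTtgtagtccgct
Eif3d: agctgtgacacACTTCCGGttgtgtctcac
Eif3l: ggctgggcgggACTTCCGGtccggccaagc
Eif4e2: tcgccagccaaCCGGAAGTagccgggccct
Eif5a: cagccgtagcaCCGGAAGTgttccccattg
Eif5a2: agctctgcacgCCGGAAGTgcactaatccg
These 7 genes differed in direction, with log2 fold changes from -0.49 (Eif2b4) to 0.52 (Eif4e2). Their median was 0.37, against 0.14 in the 31 members with a promoter and no match. A link between the motif and expression was not tested. The letters TGATGNAA, a core of the element that ATF4 and C/EBP proteins bind, were in 1 of the 38 genes (2.63%), Eif2s3x, and in 4.51% of all genes, counted on both strands.

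The subunits of eIF2, which delivers the initiator tRNA, were close to equal. Eif2s1, the alpha subunit that stress kinases phosphorylate, had means of 6.59 in Mfn1-/- oocytes against 7.08 in WT. Eif2s2 had 14.1 and 16.1, 1.14-fold lower. Eif2s3x, on chromosome X, had 0.756 and 0.669. Each of the 3 genes has a measured pseudogene copy with larger means, so many of its reads could have been counted there, which was not tested. Gm2223, 100% identical to Eif2s3x over 1350 bases, had 4.67 and 3.6. Gm9892, a copy of Eif2s2, had 121 and 157, and Gm12734, a copy of Eif2s1, had 11.9 and 10.9. All 3 genes lay below the median of expressed genes, with log2 fold changes from -0.19 to 0.15. Eif2a and Eif2d, which can deliver tRNA outside the eIF2 route, had log2 fold changes of 0.14 and 0.10 and means of 1.61 and 1.45, and of 1.87 and 1.74.

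The genes grouped with eIF1 and eIF1A, the factors that guard the choice of start codon, had the highest group median, 0.41. That median is the value of Eif1ad, while the log2 fold changes of Eif1, Eif1b, Eif1a and Eif1ax ran from -0.33 to 0.69. Eif1 had means of 295 in Mfn1-/- oocytes against 207 in WT, 1.43-fold higher, while its paralog Eif1b had 137 and 138. Eif1a had 2.1 and 1.26, 1.67-fold higher, while the X-linked Eif1ax, which encodes a nearly identical protein, had 16.9 and 21.3, 1.26-fold lower. The pair Eif1a and Eif1ax thus lay 1.03 apart in log2 fold change. Eif1a shares 434 bases at 95.2% identity with the gene Gm8332, which had means of 2.81 and 0.128. The difference in Eif1a could therefore include reads of Gm8332, which was not tested. Eif1ad, a relative of eIF1A, had 4.6 and 3.43. Eif1, Eif1a and Eif1ad lay above the median of expressed genes and Eif1b and Eif1ax below.

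The 14 genes of eIF3, the scaffold that joins the small subunit to mRNA and other factors, had a median log2 fold change of 0.19. In Mfn1-/- oocytes 12 were higher and 2 lower, but relative to the median of expressed genes 8 were higher and 6 lower. Eif3a, which encodes the largest subunit, had means of 3.5 and 2.07, 1.69-fold higher, and was the only one past 1.5-fold. Eif3l had 11.9 and 8.62, 1.38-fold higher. At the other end Eif3m had 12.5 and 12.6 and Eif3j2 had 21.7 and 22.5. Eif3j1 and Eif3j2 share a stretch of 2379 bases at 99.4% identity, so reads that cover no differing base could have come from either gene.

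The remaining eIF3 genes fell between log2 fold changes of 0.004 (Eif3j1, with means of 1 and 0.997) and 0.37 (Eif3d, with 10.5 and 8.11). Eif3c had 5.34 and 4.13, Eif3f 2.81 and 2.19, and Eif3g 66.5 and 52.5. These 3 genes were 1.27-fold to 1.29-fold higher. Eif3i had 11.6 and 9.97, Eif3k 22.3 and 19.9, Eif3e 3.1 and 2.84, Eif3h 1.14 and 1.05, and Eif3b 1.68 and 1.61. None of these passed 1.5-fold. Subunits a, b, g and i had a median of 0.28. The other 10 genes, with Eif3c, Eif3j1 and Eif3j2 among them, had a median of 0.14, and this difference was not tested.

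The factors of the later steps were mostly flat. Eif5a, which helps the ribosome through difficult peptide bonds, had means of 84.3 in Mfn1-/- oocytes against 62.1 in WT, 1.36-fold higher. Its paralog Eif5a2 had the lowest means of all members, 0.0734 and 0.073. Eif5, the GTPase-activating protein of eIF2, had 34.7 and 35.8, and Eif5b, the GTPase of subunit joining, had 4.8 and 4.77. Eif6, which keeps free large subunits from joining, had 35.5 and 39.1, 1.10-fold lower. Only Eif5a lay above the median of expressed genes among these 5 genes.

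Several members have processed pseudogenes that are nearly identical to their transcripts, and reads of 75 bases could have been assigned to either. At 95% identity or more over at least 75 bases, 12 members matched 25 annotated pseudogenes that were measured, and 19 of the 25 differed between the genotypes in the direction of their parent gene. That count is a description, because reads shared by a gene and its copy fix part of it in advance. Over all genes, 56.7% had the higher mean in Mfn1-/- oocytes. Eif1 alone had 12 of the 25 copies. Gm10157, a copy of Eif1 at 98.3% identity, had means of 366 in Mfn1-/- oocytes against 243 in WT. Gm9892, a copy of Eif2s2 at 99.5% identity, had 121 and 157, and Gm7327, a copy of Eif4e at 98.6%, had 70.2 and 54.5. For Eif2s1 and Eif3m the single copy had the other direction, at differences under 0.13 on the log2 scale in gene and copy, and the other 4 were 3 copies of Eif1 and 1 of Eif4a1, all with means below 1. The value of each of these 12 members may therefore leave out part of its own reads or include reads of a copy, which was not tested. Eif1a has 1 copy, the gene Gm8332 at 95.2% identity over 434 bases, and Gm8332 had means of 2.81 and 0.128.

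Other genes of the pathway were described in 7 lists chosen by function, 64 genes in all. Of these, 4 were more than 2-fold higher and 0 more than 2-fold lower, with the background of all genes at 4.87% and 2.75%. All 4 are in the list of ATF4 and its target genes, and Eif4ebp1, itself a known ATF4 target, was not entered in that list because it is a member. Chac1, a glutathione-degrading enzyme, had means of 5.01 in Mfn1-/- oocytes against 1.25 in WT. Asns, asparagine synthetase, had 0.88 and 0.195. Psat1, of serine synthesis, had 0.313 and 0.021, and Sesn2, an inhibitor of mTORC1, had 0.268 and 0.0813.

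The rest of the ATF4 list was mixed, and 8 of its 12 genes did not pass 2-fold. Atf4 had means of 55.4 and 45.5, a log2 fold change of 0.28. Ddit3 had 18.6 and 18.2, Trib3 had 0.213 and 0.224, and Phgdh had 0.939 and 1.05. Vldlr had 0.0911 and 0.03, past 2-fold only with a pseudocount of 0.01 or none. Atf5 had 0.0405 and 0.0155, past 2-fold only with no pseudocount. Sesn2 had a log2 fold change of 0.86 after the common shift was subtracted, and with a pseudocount of 1 only Chac1 passed 2-fold. The lists were chosen with earlier results on the series known, so the 4 calls are a description.

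In the lists of genes upstream of eIF2 and of the 4E-binding proteins, 9 and 10 genes, none passed 2-fold. Sesn2, an inhibitor of mTORC1 that passed 2-fold, was entered in the ATF4 list instead. At 4.87% higher and 2.75% lower over all genes, a count of 0 in lists of this size is no departure from the background. Of the 4 eIF2 kinase genes, all had the lower mean in Mfn1-/- oocytes, as did 9810 of all 22877 genes. Eif2ak1 had 0.996 and 1.24. Eif2ak2, Eif2ak3 and Eif2ak4 had log2 fold changes from -0.07 to -0.03, at low means from 0.0237 to 0.22. Ppp1r15a, the inducible subunit that directs phosphatase to eIF2, had 18.3 and 16.1, and Ppp1r15b, the constitutive one, had 0.787 and 1.02. In the mTOR list, Mlst8, a subunit of mTOR complexes, had 1.16 and 0.612, 1.90-fold higher, and was the only one of 10 genes past 1.5-fold with the pseudocount. Mtor had 0.149 and 0.163, and Mknk2, a kinase of eIF4E, had 0.284 and 0.184.

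Among the accessory factors of initiation and recycling, 3 of 10 genes were more than 1.5-fold higher and 1 more than 1.5-fold lower, against 12.4% and 6.88% of all genes. Mcts1 and its partner Denr, which act on post-termination small subunits, had means of 0.856 and 0.437, and of 3.37 and 2.38. Abce1, the recycling ATPase, had 0.858 and 0.519, and Mif4gd had 8.28 and 5.39. Dhx29, a helicase for structured leaders, had 0.816 and 1.36, 1.67-fold lower, and the helicase Ddx3x had 10.9 and 15.1. The poly(A)-binding list had 2 higher and 4 lower of 6 genes. The higher ones were Pabpc1, with 1.09 and 0.847, and Pabpc4, with 3.26 and 2.35. Pabpc1l, the form found in oocytes, was lower at 1.85 and 2.19, as was its inhibitor Paip2 at 32.9 and 37.6.

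Elongation and termination factors had a median of 0.09 and log2 fold changes from -0.13 to 0.46 in 10 genes. Eef1a1 had means of 35.2 in Mfn1-/- oocytes against 32 in WT, and Eef2 had 9.87 and 7.54. The 7 genes of oocyte mRNA repression had a median of -0.19. Zar1 had a log2 fold change of -0.21, Ybx2 had 8.34 and 9.55, and Lsm14b had 3.6 and 5.06, 1.41-fold lower. Cpeb1, which represses mRNA with the aid of eIF4E-binding partners, had 2.76 and 2.22.

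**Figure D5:**
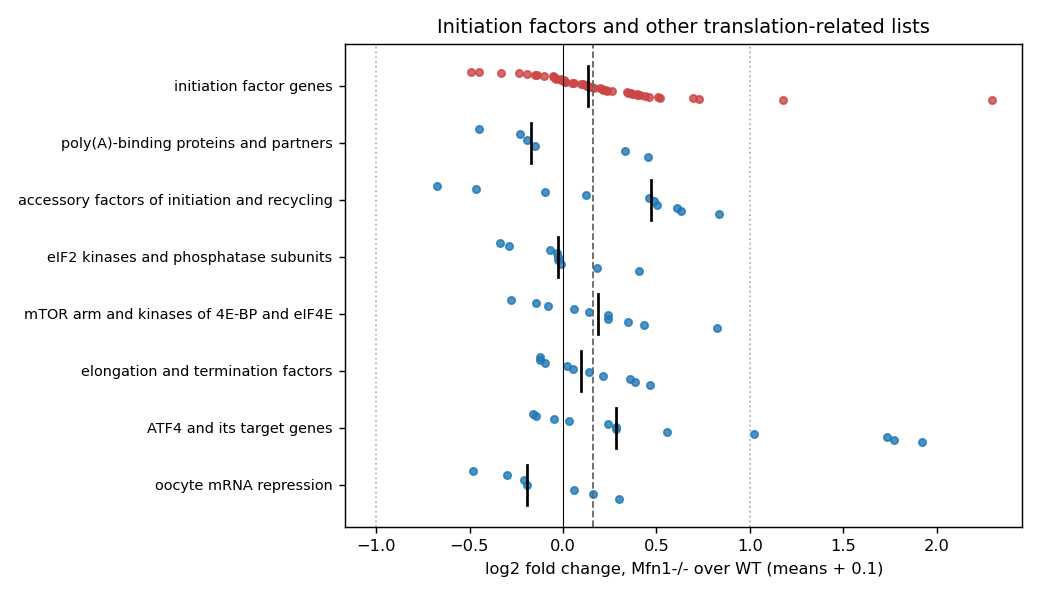
Log2 fold change (Mfn1-/- over WT, genotype means plus 0.1) of the 50 initiation factor genes (red) and of the 64 genes in 7 related lists (blue), 1 point per gene, with a black bar at each median. The dashed line marks the median of 0.16 of expressed genes and the dotted lines 2-fold. Points past 2-fold are Eif4ebp1 and Eif2b5 among the initiation factors and 4 genes of the ATF4 list.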

How the data were processed

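Poly(A) RNA of 5 pooled oocytes per library was amplified with Smart-Seq2, made into libraries with Nextera XT and read in pairs of 75 bases. Per the paper's methods and the submitters' processing notes, adapters were cut with Cutadapt, reads of low quality were removed, STAR mapped the rest to GRCm38/mm10, and genes were counted with an annotation whose version is not given in the sources used here. The signal the authors deposited is normalized counts, averaged within each genotype and summed over libraries, with a lowest mean of 0.01, and the normalization is not given in the sources used here. In 100% of genes that sum lay within 2% of what 3 Mfn1-/- and 4 WT libraries at these means give. The deposited p-values, FDR, ratios and fold changes are the authors' own comparison, made with DESeq2 per the methods, and were not used. Depth per library is unknown. Of per-sample columns, 0 went unused.

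Log2 fold changes were computed from the means plus 0.1. A call was a difference over 2-fold, the fold the study's methods name, with no test, and expressed genes had a mean of at least 1 weighted by libraries. The limma fit planned for values of single libraries could not be made. Members, factor groups and lists were chosen with earlier results of these data known. Genes named were members past 2-fold, all members of eIF2, eIF2B, the eIF4E family and its binding proteins, the 2 highest and 2 lowest of each other factor, and listed pathway genes. The remaining members were named to account for all of them. Positions, overlaps and transcripts came from GENCODE M21 (GRCm38), and copies were found with blastn 2.17.0 at 95% identity over 75 bases. Promoters came from RefSeq (GRCm38.p6). The call code was checked on simulated data. Alternatives were pseudocounts of 0.01 and 1, none, a minimum mean of 1, subtraction of the median of expressed genes, a fold of 1.5, and leaving out the 4E-binding proteins and Eif4enif1. Python 3.11.15, numpy 2.4.6, pandas 2.3.3 and matplotlib 3.10.9 were used.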

Additional observations from a re-analysis of the deposited data

How the results depend on the processing

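The direction of each of the 50 members was the same with pseudocounts of 0.01 and 1 and with none, and 13 members changed direction when the median of expressed genes was subtracted. The count of members past 2-fold, 2 higher and 0 lower, became 1 higher with a pseudocount of 1 and 1 with a minimum mean of 1, 4 with a fold of 1.5, and 1 of 46 without the 4E-binding proteins and Eif4enif1. The 4 higher genes of the pathway lists became 5 with a pseudocount of 0.01, 6 with none, 3 with the median of expressed genes subtracted, 1 with a pseudocount of 1, 1 with a minimum mean of 1 and 8 with a fold of 1.5, at which 1 was lower. With the median of expressed genes subtracted, the median over members was -0.028. The group medians were then 0.25 for eIF1 and eIF1A, -0.26 for eIF2, -0.039 for eIF2A and eIF2D, 0.074 for eIF2B, 0.031 for eIF3, 0.052 for eIF4A, -0.10 for eIF4E, -0.20 for eIF4G, -0.13 for the eIF4E-binding proteins and -0.16 for eIF5 to eIF6. These shifts follow from the subtraction itself. Among all genes, 1742 passed 2-fold in the main setting, 3911 with a pseudocount of 0.01, 4805 with none and 319 with a pseudocount of 1. No paired analysis was possible because the values are 1 mean per genotype, and for the same reason leaving out single libraries was not run.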

Other observations

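The 7 Eif names that end in -ps were left out as pseudogenes, and all 7 had the higher mean in Mfn1-/- oocytes. The same held for 56.7% of all genes and 65.4% of expressed genes. Where such a pseudogene is a copy of a member, shared reads fix part of its direction in advance. Pseudogene copies under other names were not all higher, as for Gm9892, the copy of Eif2s2 with means of 121 and 157. Their log2 fold changes ran from 0.33 to 0.95 with a median of 0.63, all above the median of 0.16 of expressed genes, and 0 passed 2-fold. Eif1-ps1 had means of 41.4 in Mfn1-/- oocytes against 21.4 in WT, and Eif4a-ps4, a copy of Eif4a1 at 99.9% identity, had 280.0 and 221. For the parents Eif1 and Eif4a1 the log2 fold changes were 0.51 and 0.21, below the 0.95 and 0.34 of these copies.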
